A study of Mus musculus with 11 samples.

Results

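The genes described here are 42 mouse genes of mitosis and the spindle, out of 46469 gene symbols in the deposited tables. They were chosen by name, as the regulators of entry into mitosis, the builders of the spindle, the kinetochore, the spindle checkpoint, the switch to anaphase, the chromosomal passenger complex and cytokinesis, with Top2a and Mki67 for the mitotic chromosomes. All 42 were found, each at a single locus on a primary chromosome, and all 42 were at or above the level set for testing. Their messenger RNA was measured by RNA sequencing in embryonic fibroblasts with different numbers of intact copies of Actb, the gene for cytoplasmic β-actin. The WT group had genotype Actb +/+ (4 libraries), the Het group Actb +/- (4 libraries) and the KO group Actb -/- (3 libraries, numbered 1, 3 and 4). All groups were of strain BALB/c, derived from embryos of 10.5 days and grown in high-glucose medium with serum until RNA was taken at 70% confluence. The series calls the replicates biological, and nothing in the labels tells if they stem from separate embryos or cultures, or from a single line per genotype. All p-values below measure the spread between these libraries, which may be technical.

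In mitosis, cyclin B with its kinase CDK1 starts chromosome condensation and spindle assembly, and microtubules then attach to the kinetochores built on each centromere. The spindle checkpoint holds the cell until every kinetochore is attached. The anaphase-promoting complex then marks securin and cyclin B for destruction, separase cuts the cohesin rings, and an actin and myosin ring divides the cell. Most of these genes are transcribed late in the cell cycle, under the repressor complex DREAM and the activators B-MYB and FOXM1. These regulators act at promoter elements known as CHR, and the promoters often also hold CCAAT boxes, which another factor binds. In fibroblast cultures the RNA level of such genes thus follows how many cells are in or near mitosis. It also follows how much each such cell makes. In bulk RNA, fewer cells of a kind and less RNA per cell cannot be told apart.

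As a check of the labels, Actb itself was at 45.8 ± 1.27 FPKM in the KO libraries (SD, n = 3), 837 ± 24.0 in the Het libraries (SD, n = 4) and 1325 ± 199.6 in the WT libraries (SD, n = 4). FPKM is the number of fragments relative to transcript length and library size, so it can be compared between genes, and all FPKM below were scaled between libraries. Depth, read from the steps between low values, lay between 60.7% (WT 3) and 125% (WT 4) of that of WT 1, with KO 1 at 65.6%. The median half-width of the deposited interval over the 42 genes lay between 5.58% (WT 4) and 8.33% (KO 1) of the level, which covers estimation error within a library. Fibroblast markers were abundant, with a summed level of 1467 to 1922 FPKM over 8 genes in WT, 2308 to 2627 in Het and 3577 to 4228 in KO, and all 8 rose in KO. In WT, 2 of these 8 markers stayed under 1 FPKM in every library, among them Thy1. All 5 endothelial markers were under 1 FPKM in every library. The blood markers Ptprc, Emr1 and Hbb-bs and the muscle markers Myod1 and Myog were listed at 0 in every library. All 6 blood markers summed to 1.67 to 3.07 FPKM in WT, 1.49 to 2.51 in Het and 2.41 to 4.88 in KO. All 4 muscle markers summed to 0.386 to 0.502 FPKM in WT, 0.948 to 1.53 in Het and 0.896 to 1.42 in KO. The 1 muscle marker that could be tested rose in KO and in Het, with log2 differences of 0.61 and 0.57. The 6 epithelial markers summed to 3.02 to 7.49 FPKM in WT, 5.49 to 9.55 in Het and 0.852 to 0.963 in KO. Both epithelial markers that could be tested, Krt14 and Krt18, fell in KO. The 4 neural markers summed to 120.2 to 129.7 FPKM in WT, 81.0 to 84.8 in Het and 107.9 to 110.4 in KO, nearly all from Nes and Tubb3, and Sox2 was listed at 0 in every WT and KO library. The part of these markers in the results was not tested.

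Most of the mitotic genes were lower in cells without Actb, and fewer of them passed the test as lower in cells with 1 intact copy. In KO against WT, 32 of the 42 fell and 0 rose, by limma over all genes with adjusted p under 0.05. Over all 14948 genes tested, 23.8% fell and 23.3% rose at that adjusted threshold. At an unadjusted p under 0.05 from the same fit, 33 of the 42 were lower and 0 higher. The share of all genes there was not counted, but it cannot be below the 23.8% and 23.3% just given. These counts thus have no exact share to be set beside. The median log2 difference was -0.40 over the 42 genes and 0.0088 over all genes. Of the 42 differences 36 were below 0, against 49.1% of those over all genes. For 31 of the 42, every KO library was below every WT library, which held for 23.6% of all genes. The summed level of the 42 genes was 2924 to 3294 FPKM in WT, 2477 to 2643 in Het and 2325 to 2433 in KO, without overlap between the groups.

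In Het against WT, 20 of the 42 fell and 2 rose, where 22.1% of all genes fell and 21.7% rose. The median over the 42 was -0.22, against 0.0079 over all genes. Of the 42 differences 37 were below 0, against 49.1% of those over all genes. Every Het library was below every WT library for 19 of the genes (20.0% of all genes) and above for 2 (19.4% of all genes). This comparison and that of KO with WT share the 4 WT libraries, so their values are set side by side and not tested against each other. The direct comparison of KO with Het found 17 of the 42 lower and 8 higher in KO, where 22.2% and 22.0% of all genes were. Its median was -0.06, against 0.0071 over all genes. With no scaling between libraries 20 were lower and 4 higher, where 29.96% and 17.2% of all genes were, so the number higher in KO than in Het depends on the scaling. The factors that divided the libraries were 0.937 to 0.960 in KO and 0.994 to 1.04 in WT and Het. Without scaling, the share of called genes that were higher moved from 49.4% to 37.1% in KO against WT and from 49.8% to 36.5% in KO against Het, over all genes.

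**Figure D1:**
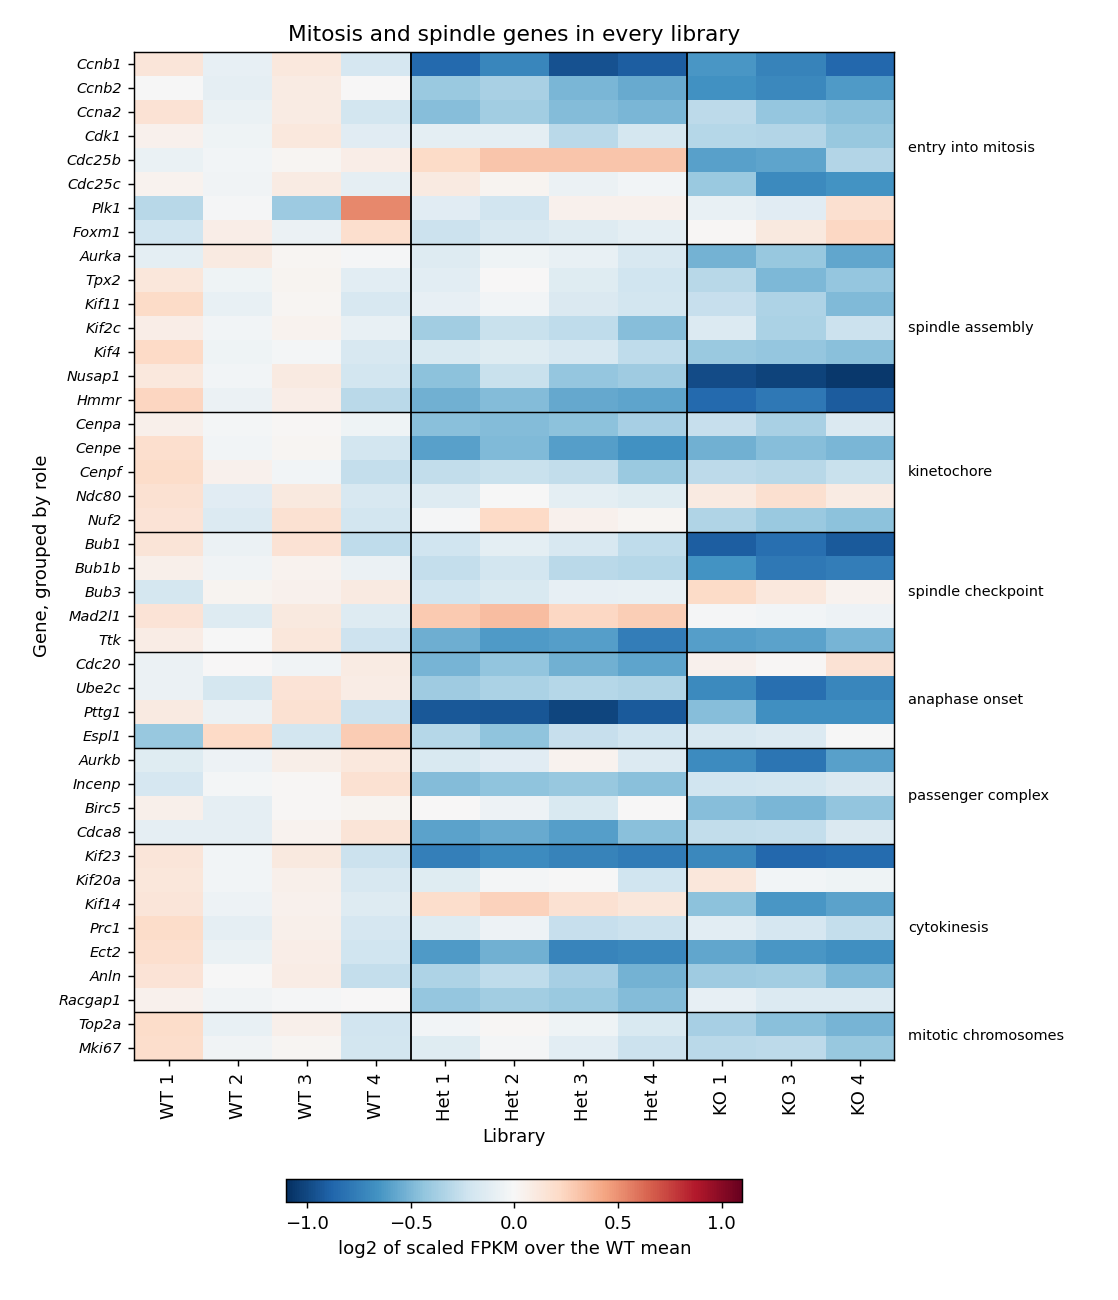
Each row is 1 of the 42 genes, grouped by role, and each column 1 of the 11 libraries. Colour gives the log2 of the scaled FPKM over the WT mean (blue lower, red higher). The KO columns are blue for most rows, Nusap1 deepest, while Cdc25b and Mad2l1 are red in Het and Plk1 stands out in WT 4.

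Stretches of promoter are shown for 6 genes, those with the largest differences of KO from WT among genes whose RefSeq promoter window holds a CCAAT box or the core of a CHR element. RefSeq windows (GRCm38.p6, 250 bases before the start site and 50 from it) were found for 35 of the 42 genes, and 27 of these have a start site within 50 bases of the 5′ end of the locus in the deposited tables. Each line runs 5′ to 3′ on the gene's strand from 130 bases before the start site to 30 bases into the transcript. Capitals mark CCAAT or its reverse complement ATTGG, then TTTGAA or its reverse complement TTCAAA, as well as the palindrome TTCGAA.
Bub1, chr2:127831830-127831989, minus strand: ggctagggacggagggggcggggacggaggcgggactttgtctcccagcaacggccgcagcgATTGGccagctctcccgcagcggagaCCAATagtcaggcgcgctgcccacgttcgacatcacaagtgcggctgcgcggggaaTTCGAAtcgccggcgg
Hmmr, chr11:40733408-40733567, minus strand: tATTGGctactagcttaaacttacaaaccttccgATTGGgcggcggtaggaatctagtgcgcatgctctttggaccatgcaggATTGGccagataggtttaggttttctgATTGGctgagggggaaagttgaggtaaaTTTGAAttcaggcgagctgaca
Kif23, chr9:61946770-61946929, minus strand: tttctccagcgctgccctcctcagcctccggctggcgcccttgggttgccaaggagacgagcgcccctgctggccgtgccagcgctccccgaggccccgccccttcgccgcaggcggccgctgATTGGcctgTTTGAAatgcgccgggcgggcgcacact
Ube2c, chr2:164769799-164769958, plus strand: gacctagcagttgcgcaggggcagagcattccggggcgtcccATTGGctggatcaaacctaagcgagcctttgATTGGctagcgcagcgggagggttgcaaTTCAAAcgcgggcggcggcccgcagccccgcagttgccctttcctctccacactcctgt
Ccnb1, chr13:100786457-100786616, minus strand: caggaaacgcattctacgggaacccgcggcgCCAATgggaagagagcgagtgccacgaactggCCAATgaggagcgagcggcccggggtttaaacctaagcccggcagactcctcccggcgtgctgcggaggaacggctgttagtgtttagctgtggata
Bub1b, chr2:118598081-118598240, plus strand: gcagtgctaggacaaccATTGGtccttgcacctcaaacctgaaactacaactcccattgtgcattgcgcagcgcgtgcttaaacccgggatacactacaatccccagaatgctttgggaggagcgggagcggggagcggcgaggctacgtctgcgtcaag
Counting the first base of the transcript as 1, Bub1 has CCAAT at -68 and -42 and TTCGAA at 15. Kif23 has CCAAT at -7 and TTTGAA at 3. Ube2c has TTTGAA at -29 downstream of CCAAT at -88 and -57 in the stretch shown. Hmmr has TTTGAA at 9 after a row of CCAAT boxes, the nearest at -20. Ccnb1 has CCAAT at -99 and -67, and the letters TTTGAA and TTCGAA are not in its window. Bub1b has CCAAT at -113, and its TTTGAA at 41 and TTCGAA at -188 lie outside the stretch shown.

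Over the whole windows, searched on both strands, CCAAT was found in 27 of the 35 genes (77.1%) and in 41.1% of all 27025 genes with a window. TTTGAA was found in 26 of the 35 (74.3%) and in 20.2% of all genes. TTCGAA was found in 4 of the 35 (11.4%) and in 1.80% of all genes. A window with CCAAT and with TTTGAA or TTCGAA belonged to 25 of the 35 (71.4%) and to 8.61% of all genes. Matches of CCAAT shared bases with TTTGAA or TTCGAA in 1 of these genes, Cdca8, and TTTGAA shared none with TTCGAA. Among genes with a window, TTTGAA or TTCGAA was present in 22 of the 28 that fell in KO and in 6 of the 7 that did not pass the test, against 16.1% of the 9220 tested genes with a window and 21.7% of all genes with one. A match describes the letters only, and no binding was measured.

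Among the regulators of entry into mitosis, the cyclin genes Ccnb1, Ccnb2 and Ccna2, the phosphatase genes Cdc25b and Cdc25c and the kinase gene Cdk1 fell in KO, and Plk1 and Foxm1 did not pass the test. Of the 8 genes, 6 fell in KO, and in Het 3 fell and 1 rose. Over all genes, 23.8% fell in KO, and in Het 22.1% fell and 21.7% rose. Ccnb1 (gene33560, chromosome 13, 100778732 to 100786543) encodes cyclin B1, which activates CDK1, and measured 167, 143, 164 and 134 FPKM in WT 1 to 4, 84.2, 92.2, 78.1 and 81.2 in Het 1 to 4, and 97.6, 91.3 and 83.7 in KO 1, 3 and 4. All Het and all KO libraries lay below all WT libraries, and Het and KO overlapped. Ccnb1 was at 59.8% of the WT mean in KO, with a log2 difference of -0.73 (SE 0.092, adjusted p = 7.32e-05), and at 55.2% in Het, with -0.85 (SE 0.085, adjusted p = 1.85e-05). The other B-type cyclin, Ccnb2, fell in KO (-0.66, adjusted p = 1.01e-05) and in Het (-0.45, adjusted p = 0.000119), and was lower in KO than in Het (-0.21, adjusted p = 0.0202). Ccna2, the cyclin of S phase and early mitosis, fell in KO (-0.38, adjusted p = 0.0034) and Het (-0.45, adjusted p = 0.000922), and KO and Het differed by 0.065, adjusted p = 0.573. The kinase gene Cdk1 itself fell to 78.4% of WT in KO (-0.35, adjusted p = 0.00217). Its Het difference was -0.17, adjusted p = 0.0537, and without WT 4 it passed the test (-0.22, adjusted p = 0.0171).

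Cdc25b (gene5167, chromosome 2, 131186436 to 131198511) encodes a phosphatase that removes the inhibitory phosphates from CDK1, and it was the only gene of the 42 that passed in opposite directions in Het and KO. It measured 18.1, 18.8, 19.5 and 20.1 FPKM in WT 1 to 4, 22.1, 23.6, 23.6 and 23.6 in Het 1 to 4, and 12.7, 12.8 and 15.3 in KO 1, 3 and 4. The 3 groups did not overlap, with Het the highest and KO the lowest. It rose in Het (0.27 (SE 0.067, adjusted p = 0.00764)) and fell in KO (-0.47 (SE 0.072, adjusted p = 0.000316)). KO was below Het by -0.73 (SE 0.072, adjusted p = 1.28e-05). Its relative Cdc25c fell in KO (-0.55, adjusted p = 0.000187), and the Het difference was 0.0092, adjusted p = 0.935.

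Plk1 (gene19561, chromosome 7, 122159437 to 122169875), the polo-like kinase that acts at centrosomes, kinetochores and the midbody, measured 24.3, 29.7, 22.8 and 43.3 FPKM in WT 1 to 4, 27.6, 26.0, 31.0 and 31.0 in Het 1 to 4, and 28.4, 27.5 and 33.9 in KO 1, 3 and 4. WT alone ran from 22.8 (WT 3) to 43.3 (WT 4), a wider range than Het and KO together. The difference of KO from WT was 0.034 (SE 0.18, adjusted p = 0.898), the largest SE among the 42 genes, and that of Het was -0.013 (SE 0.17, adjusted p = 0.96). Foxm1 (gene15979, chromosome 6, 128362994 to 128375886), whose product activates late cell cycle genes, measured 31.9, 39.0, 35.7 and 42.2 FPKM in WT 1 to 4, 31.6, 32.9, 33.8 and 34.5 in Het 1 to 4, and 37.5, 40.2 and 43.6 in KO 1, 3 and 4. Its KO and WT libraries overlapped, with a difference of 0.12 (SE 0.09, adjusted p = 0.298). The Het difference from WT, -0.15, adjusted p = 0.165, passed without WT 1 (-0.22, adjusted p = 0.0284). Every KO library was above every Het library, and KO was higher than Het by 0.27 (SE 0.09, adjusted p = 0.029). That call was lost without scaling (0.17, adjusted p = 0.201), with no filter (0.0532 as adjusted p), and without Het 1, Het 2, Het 3, KO 3 or KO 4, with adjusted p up to 0.201 over all alternatives.

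All 7 spindle assembly genes fell in KO, and 3 of them also fell in Het, where 23.8% and 22.1% of all genes did. Nusap1 (gene4880, chromosome 2, 119618298 to 119650160), which bundles spindle microtubules near the chromosomes, showed the largest KO difference of the 42 genes. It measured 75.0, 67.8, 74.0 and 60.1 FPKM in WT 1 to 4, 50.5, 58.2, 51.5 and 52.6 in Het 1 to 4, and 35.0, 34.2 and 33.2 in KO 1, 3 and 4. The groups were fully separated, with KO lowest and Het between. KO was at 49.3% of the WT mean (-0.99 (SE 0.081, adjusted p = 2.77e-06)) and Het at 76.9% (-0.37 (SE 0.075, adjusted p = 0.00228)), and KO was below Het by -0.62 (SE 0.081, adjusted p = 9.85e-05). Hmmr, a hyaluronan receptor that also binds spindle poles, had the same order, at 55.5% of WT in KO (-0.82, adjusted p = 6.73e-05) and 69.0% in Het (-0.51, adjusted p = 0.00125). Its promoter is among those shown. The step from Het to KO in Hmmr (-0.31, adjusted p = 0.0296) was lost with no filter and without Het 1, Het 2, KO 1 or KO 4, with adjusted p up to 0.0962.

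Kif2c (gene10010, chromosome 4, 117159633 to 117182624), a kinesin that takes microtubule ends apart, had the smallest KO difference of this role. It measured 49.1, 45.8, 48.0 and 44.2 FPKM in WT 1 to 4, 36.0, 39.4, 38.5 and 33.8 in Het 1 to 4, and 42.1, 36.9 and 39.6 in KO 1, 3 and 4. All Het and KO libraries were below all WT libraries. The difference was -0.24 (SE 0.07, adjusted p = 0.0162) in KO and -0.34 (SE 0.065, adjusted p = 0.00174) in Het, and without KO 3 the KO call was lost (-0.19, adjusted p = 0.0808). Aurka, the Aurora kinase of the centrosomes, fell in KO (-0.49, adjusted p = 7.87e-05), as did its activator Tpx2 (-0.40, adjusted p = 0.0012), the pole-separating motor gene Kif11 (-0.35, adjusted p = 0.00949) and the chromosome-bound motor gene Kif4 (-0.41, adjusted p = 0.00169). In Het these 4 genes lay between -0.18 and -0.11 and did not pass the test. Without WT 4, Kif4 passed in Het (-0.24, adjusted p = 0.0166). The Tpx2 to Aurka ratio was 1.51 in WT, 1.498 in Het and 1.61 in KO. Aurka, Tpx2, Kif4, Nusap1 and Hmmr were lower in KO than in Het.

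**Figure D2:**
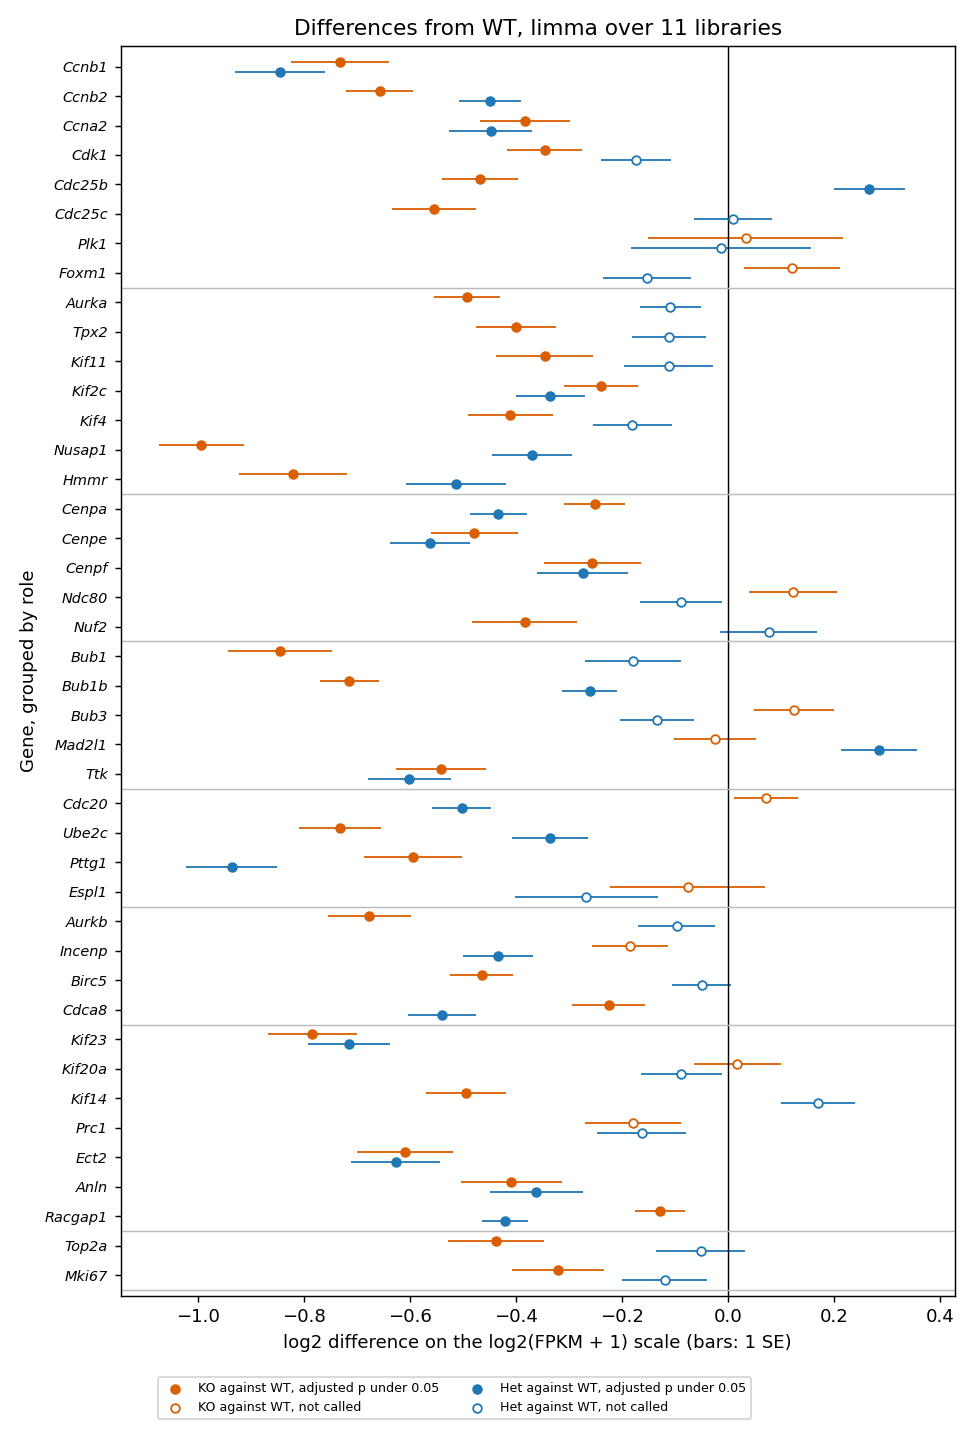
Points give the log2 difference from WT of KO (orange) and Het (blue) for the 42 genes, in the role order used in the text, with bars of 1 SE, and filled points passed the test. Most orange points lie left of 0, down to -0.99 for Nusap1, and in several rows the orange point is filled and the blue one open, as for Bub1 and Aurkb.

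At the centromere and kinetochore, 4 of 5 genes fell in KO and 3 fell in Het, where 23.8% and 22.1% of all genes did. Cenpe (gene8223, chromosome 3, 135212563 to 135273540), a motor that carries chromosomes along microtubules, measured 38.8, 33.3, 34.5 and 29.7 FPKM in WT 1 to 4, 22.5, 24.3, 22.4 and 21.4 in Het 1 to 4, and 23.6, 24.6 and 24.0 in KO 1, 3 and 4. Het and KO overlapped and both lay below WT. The difference was -0.48 (SE 0.082, adjusted p = 0.000639) in KO and -0.56 (SE 0.075, adjusted p = 0.000148) in Het. Cenpa, the histone variant that marks the centromere, fell in KO (-0.25, adjusted p = 0.00437) and in Het (-0.43, adjusted p = 8.35e-05). It was higher in KO than in Het (0.18, adjusted p = 0.0253), a call lost under 7 of 19 alternatives, among them no scaling, upper quartile scaling and leaving out Het 1, Het 2, Het 3, KO 1 or KO 4 (adjusted p up to 0.331). Cenpf, a large outer kinetochore protein, was near the threshold in KO (-0.26, adjusted p = 0.0406), and its KO call was lost under 11 of 20 alternatives, among them leaving out WT 1, WT 2, WT 3, KO 1, KO 3 or KO 4 (adjusted p up to 0.108). Its Het call (-0.27, adjusted p = 0.0228) was lost without WT 1, WT 2 or Het 4 (adjusted p up to 0.0652).

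Ndc80 and Nuf2 encode partners in the complex that grips microtubules, and their differences from WT in KO had opposite signs. Ndc80 (gene40753, chromosome 17, 71496100 to 71526857) measured 47.5, 38.8, 45.5 and 37.5 FPKM in WT 1 to 4, 38.3, 42.2, 39.3 and 38.5 in Het 1 to 4, and 45.3, 47.7 and 45.0 in KO 1, 3 and 4. The KO values lay near the upper end of the WT range, with KO 3 just above it, and the difference was 0.12 (SE 0.084, adjusted p = 0.254). With values corrected for GC content it passed the test (0.20, adjusted p = 0.00333). Nuf2 fell in KO (-0.38, adjusted p = 0.00836) and in Het differed by 0.077, adjusted p = 0.531. The Ndc80 to Nuf2 ratio was 0.624 ± 0.0187 in WT, 0.555 ± 0.0146 in Het and 0.892 ± 0.0479 in KO (SD over 4, 4 and 3 libraries), and the 3 groups did not overlap.

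Of the 5 spindle checkpoint genes, the genes Bub1, Bub1b and Ttk of the kinase family fell in KO and Bub3 and Mad2l1 did not pass the test. Over all genes, 23.8% fell in KO. Bub1 (gene5062, chromosome 2, 127800200 to 127831876), a kinase that recruits checkpoint proteins to kinetochores, measured 44.0, 37.9, 44.4 and 32.7 FPKM in WT 1 to 4, 34.2, 36.9, 35.1 and 32.7 in Het 1 to 4, and 21.2, 22.3 and 21.0 in KO 1, 3 and 4. KO stood clear of both other groups, which overlapped. KO was at 54.1% of the WT mean, a difference of -0.85 (SE 0.098, adjusted p = 3.95e-05), and below Het by -0.67 (SE 0.098, adjusted p = 0.000241). The Het difference from WT was -0.18 (SE 0.09, adjusted p = 0.134), and it passed the test without WT 4 (-0.27, adjusted p = 0.00797). Bub1b, which encodes the checkpoint protein BubR1, fell in KO (-0.71, adjusted p = 2.01e-06) and less in Het (-0.26, adjusted p = 0.00199), with KO below Het (-0.45, adjusted p = 6.85e-05). Ttk, the kinase MPS1 that starts checkpoint signalling, fell in KO (-0.54, adjusted p = 0.000358) and in Het (-0.60, adjusted p = 0.000121), and KO and Het differed by 0.061, adjusted p = 0.599.

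Bub3, which binds both BUB1 and BubR1, differed from WT by 0.12, adjusted p = 0.201 in KO and -0.13, adjusted p = 0.146 in Het. Without WT 1 it passed in Het (-0.19, adjusted p = 0.0204). The Bub1 to Bub3 ratio was 0.799 ± 0.166 in WT, 0.763 ± 0.0586 in Het and 0.393 ± 0.0261 in KO (SD over 4, 4 and 3 libraries). The Bub1b to Bub3 ratio was 0.923, 0.840 and 0.506 in the same order. In both ratios every KO library lay below every WT and Het library. Mad2l1 (gene14787, chromosome 6, 66535249 to 66541109) encodes MAD2, the part of the checkpoint that seizes CDC20, and measured 82.3, 67.0, 79.7 and 67.2 FPKM in WT 1 to 4, 90.6, 93.8, 86.5 and 89.5 in Het 1 to 4, and 73.5, 72.7 and 71.2 in KO 1, 3 and 4. It was higher in every Het library than in any WT or KO library. It rose in Het (0.29 (SE 0.071, adjusted p = 0.00776)) while the KO difference was -0.024 (SE 0.077, adjusted p = 0.822).

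Among the 4 genes of anaphase onset, Ube2c and Pttg1 fell in KO, while Ube2c, Pttg1 and Cdc20 fell in Het. Over all genes, 23.8% fell in KO and 22.1% in Het. Ube2c (gene5822, chromosome 2, 164769929 to 164772902) encodes the enzyme that loads ubiquitin for the anaphase-promoting complex, and measured 117, 107, 135 and 129.8 FPKM in WT 1 to 4, 93.6, 96.3, 98.5 and 97.4 in Het 1 to 4, and 75.4, 69.1 and 74.6 in KO 1, 3 and 4. The groups did not overlap and Het lay between WT and KO. The difference was -0.73 (SE 0.077, adjusted p = 2e-05) in KO and -0.34 (SE 0.072, adjusted p = 0.00311) in Het. Cdc20 (gene10048, chromosome 4, 118432901 to 118437343), the activator of that complex, measured 61.4, 64.3, 62.4 and 68.4 FPKM in WT 1 to 4, 44.9, 47.5, 44.5 and 43.0 in Het 1 to 4, and 66.2, 64.5 and 71.7 in KO 1, 3 and 4. Here Het alone was low, and KO overlapped WT. Cdc20 fell in Het (-0.50 (SE 0.055, adjusted p = 3.53e-05)), differed by 0.072 (SE 0.06, adjusted p = 0.352) in KO, and was higher in KO than in Het (0.57 (SE 0.06, adjusted p = 2e-05)).

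Pttg1 encodes securin, the inhibitor of separase, and had the largest Het difference of the 42 genes. It was at 51.7% of WT in Het (-0.94, adjusted p = 9.33e-06) and at 65.8% in KO (-0.59, adjusted p = 0.000349). KO was above Het by 0.34, adjusted p = 0.0111, which was lost without KO 1 (0.27, adjusted p = 0.0542). Espl1, which encodes separase, ran from 17.5 (WT 1) to 28.4 (WT 4) within WT, and differed by -0.076, adjusted p = 0.701 in KO and -0.27, adjusted p = 0.135 in Het. The Het difference passed without WT 1 (-0.39, adjusted p = 0.0163). The Pttg1 to Espl1 ratio was 7.22 ± 2.41 in WT, 4.36 ± 0.351 in Het and 4.85 ± 0.653 in KO (SD over 4, 4 and 3 libraries), and the wide WT range overlapped both.

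**Figure D3:**
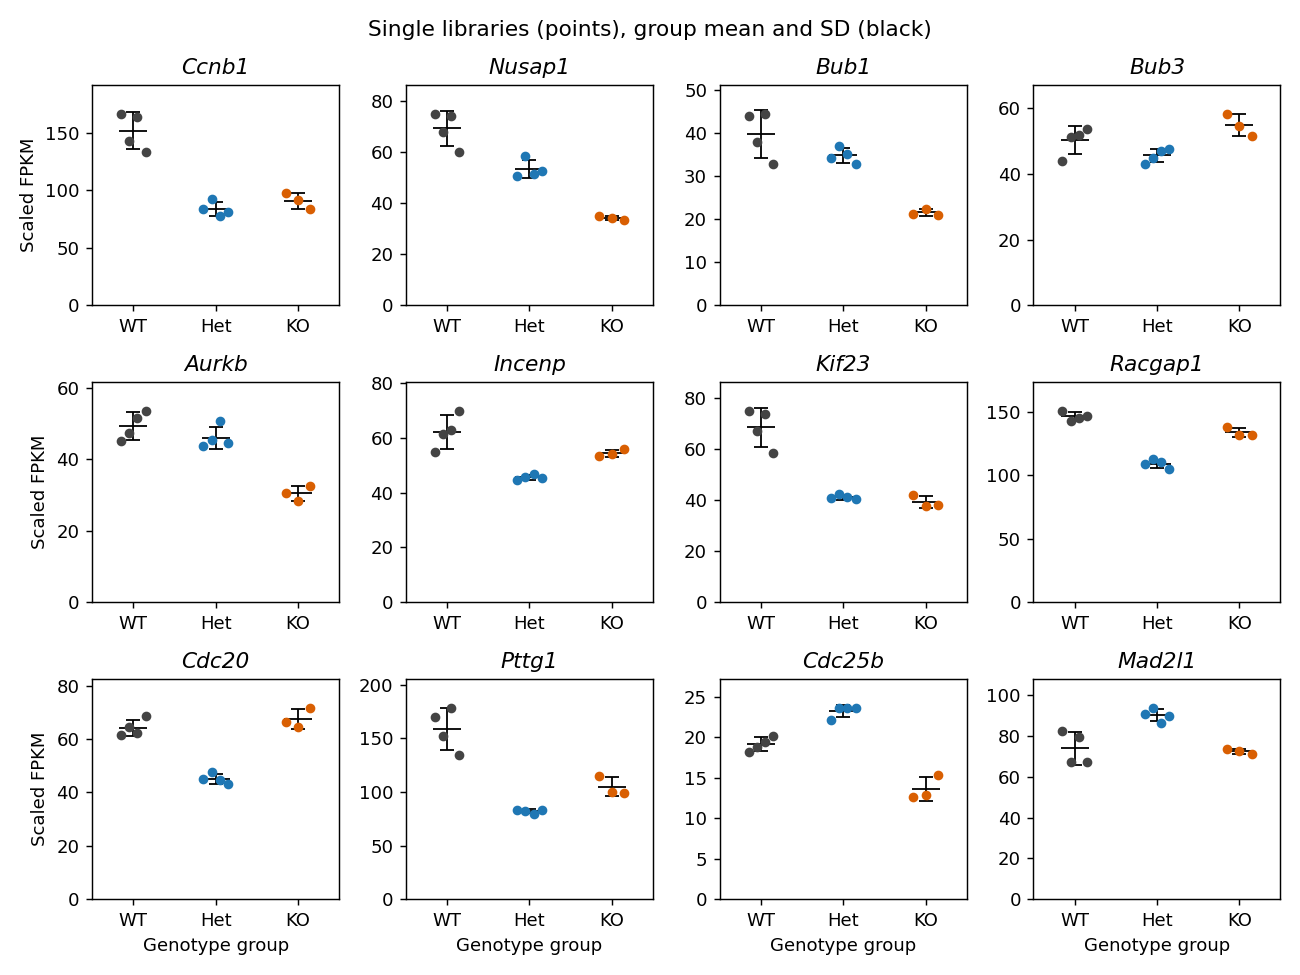
Points show the scaled FPKM of 12 genes in single libraries by genotype, with the group mean and SD in black and axes from 0. Nusap1, Bub1 and Aurkb are lowest in KO, Ccnb1 and Kif23 are low in both Het and KO, Cdc20, Incenp and Racgap1 are lowest in Het, and Cdc25b and Mad2l1 are highest in Het.

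The chromosomal passenger complex corrects wrong attachments and later guides the cleavage furrow. Of its 4 genes 3 fell in KO and 2 fell in Het, where 23.8% and 22.1% of all genes did. Aurkb (gene27992, chromosome 11, 69045625 to 69051664), its kinase, measured 44.9, 47.3, 51.5 and 53.5 FPKM in WT 1 to 4, 43.8, 45.3, 50.5 and 44.5 in Het 1 to 4, and 30.5, 28.3 and 32.6 in KO 1, 3 and 4. KO lay below both other groups, which overlapped. Aurkb fell in KO (-0.68 (SE 0.078, adjusted p = 4.04e-05)) and was lower there than in Het (-0.58 (SE 0.078, adjusted p = 0.000134)), and the Het difference was -0.10 (SE 0.073, adjusted p = 0.313). Birc5, which encodes survivin and had a mean of 209 FPKM in WT, had the same pattern, with -0.46, adjusted p = 9.15e-05 in KO and -0.049, adjusted p = 0.513 in Het.

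Incenp (gene42642, chromosome 19, 9872297 to 9899546), the scaffold of the complex, measured 54.8, 61.3, 62.8 and 70.0 FPKM in WT 1 to 4, 44.8, 45.9, 46.7 and 45.3 in Het 1 to 4, and 53.5, 54.0 and 55.9 in KO 1, 3 and 4. It was lowest in Het, and only WT 1 reached into the KO range. Incenp fell in Het (-0.43 (SE 0.066, adjusted p = 0.000376)), was just short of the threshold in KO (-0.18 (SE 0.072, adjusted p = 0.0559)), and was higher in KO than in Het (0.25 (SE 0.072, adjusted p = 0.0152)). Without WT 1 the KO difference passed (-0.24, adjusted p = 0.00546). The step from Het to KO was lost without KO 4 (0.23, adjusted p = 0.056) and without scaling (0.14, adjusted p = 0.171). Cdca8, which encodes borealin, fell more in Het (-0.54, adjusted p = 6e-05) than in KO (-0.23, adjusted p = 0.0199), with KO above Het (0.31, adjusted p = 0.00339). Its KO call was lost without KO 1 (-0.20, adjusted p = 0.0691) and without KO 3 (-0.21, adjusted p = 0.0741). The Aurkb to Incenp ratio was 0.794 ± 0.0298 in WT, 1.01 ± 0.0501 in Het and 0.559 ± 0.0315 in KO (SD over 4, 4 and 3 libraries). The Birc5 to Cdca8 ratio was 3.22, 4.55 and 2.73 in the same order. In both ratios the 3 groups were separate, with Het highest and KO lowest.

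Of the 7 cytokinesis genes, 5 fell in KO and 4 fell in Het, where 23.8% and 22.1% of all genes did. Kif23 (gene23519, chromosome 9, 61917277 to 61946812), the motor of centralspindlin, which bundles the midzone microtubules, measured 74.9, 66.9, 73.7 and 58.2 FPKM in WT 1 to 4, 40.6, 42.4, 41.0 and 40.2 in Het 1 to 4, and 41.9, 37.5 and 38.0 in KO 1, 3 and 4. Het and KO overlapped and lay far below WT. KO was at 57.2% of the WT mean (-0.78 (SE 0.084, adjusted p = 2.19e-05)) and Het at 60.1% (-0.72 (SE 0.078, adjusted p = 3.15e-05)). Its partner Racgap1 fell in Het (-0.42, adjusted p = 2.25e-05) and was near the threshold in KO (-0.13, adjusted p = 0.0447), where the call was lost under 10 of 20 alternatives, among them leaving out WT 1, WT 3, KO 1, KO 3 or KO 4 (adjusted p up to 0.144). The Kif23 to Racgap1 ratio was 0.468 ± 0.0504 in WT, 0.377 ± 0.00541 in Het and 0.292 ± 0.0102 in KO (SD over 4, 4 and 3 libraries), with no overlap between the 3 groups.

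Ect2, which switches on RhoA at the furrow, fell in KO (-0.61, adjusted p = 0.000257) and Het (-0.63, adjusted p = 0.00015), and KO and Het differed by 0.018, adjusted p = 0.894. Anln, which encodes anillin, a scaffold that binds actin in the ring, fell in KO (-0.41, adjusted p = 0.00453) and Het (-0.36, adjusted p = 0.0066). Kif14, a midbody kinesin, was the least abundant of the 42 genes. It fell in KO (-0.49, adjusted p = 0.000287) and differed by 0.17, adjusted p = 0.0707 in Het, with KO below Het (-0.66, adjusted p = 3.73e-05). Without WT 1 it rose in Het (0.21, adjusted p = 0.0317). Kif20a, a midzone kinesin, measured 75.8, 68.1, 72.1 and 61.4 FPKM in WT 1 to 4, 63.3, 68.3, 69.1 and 59.7 in Het 1 to 4, and 75.5, 67.9 and 67.0 in KO 1, 3 and 4. The 3 groups overlapped, and the difference was 0.018 (SE 0.082, adjusted p = 0.878) in KO and -0.088 (SE 0.076, adjusted p = 0.382) in Het. Prc1, which cross-links midzone microtubules, differed by -0.18, adjusted p = 0.128 in KO and -0.16, adjusted p = 0.141 in Het. Without WT 4 it passed in both, with -0.24 in KO (adjusted p = 0.032) and -0.23 in Het (adjusted p = 0.0347).

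Top2a (gene28938, chromosome 11, 98992947 to 99024206), the topoisomerase that untangles sister chromatids, was the most abundant of the 42 genes. It measured 272, 224, 246 and 205 FPKM in WT 1 to 4, 232, 238, 229 and 210.2 in Het 1 to 4, and 183, 172 and 166 in KO 1, 3 and 4. KO was below both other groups, and Het lay within the WT range. Top2a fell in KO (-0.44 (SE 0.091, adjusted p = 0.00232)) and was lower there than in Het (-0.39 (SE 0.091, adjusted p = 0.00514)), and the Het difference was -0.051 (SE 0.084, adjusted p = 0.657). Mki67 (gene19874, chromosome 7, 135689782 to 135716408) encodes Ki-67, the coat of mitotic chromosomes and the usual marker of cycling cells, and measured 59.6, 50.7, 52.7 and 45.4 FPKM in WT 1 to 4, 47.4, 51.2, 48.1 and 44.1 in Het 1 to 4, and 42.3, 42.6 and 39.0 in KO 1, 3 and 4. Every KO library lay below every WT library. It fell in KO (-0.32 (SE 0.087, adjusted p = 0.0107)), and in Het the difference was -0.12 (SE 0.08, adjusted p = 0.259).

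By their calls in both comparisons with WT, 18 genes fell in KO and in Het, and 13 fell in KO but did not pass in Het. The share of all genes with each such pattern was not counted. Both comparisons share the 4 WT libraries, so it cannot be worked out from the single shares. Taken singly, 23.8% of all genes fell in KO and 22.1% in Het, and 22.2% were lower and 22.0% higher in KO than in Het. The 13 were picked from these same libraries by a call in KO and none in Het, which favours KO below Het. Their count in the direct test thus gives no separate support. The test of KO against Het bears on the difference between KO and Het. It called 5 of the 18 lower in KO (Bub1b, Ccnb2, Hmmr, Nusap1 and Ube2c) and 4 higher (Cdca8, Cenpa, Pttg1 and Racgap1). Of the 13, it called 10 lower in KO than in Het (Aurka, Aurkb, Birc5, Bub1, Cdc25c, Kif14, Kif4, Nuf2, Top2a and Tpx2), and the exceptions were Cdk1, Kif11 and Mki67. These exceptions passed that test under some alternatives, Cdk1 and Kif11 under 5 of 19 each and Mki67 under 4 of 19. Among them was GC correction, with adjusted p = 0.016 for Cdk1, 0.00198 for Kif11 and 0.0115 for Mki67. Cdk1 also passed without Het 3 (-0.21, adjusted p = 0.0377). For Kif4 the KO against Het call was lost under 7 of 19 alternatives, among them leaving out Het 1, Het 2, Het 3, KO 1, KO 3 or KO 4 (adjusted p up to 0.105), and for Ccnb2 without Het 1, Het 2, KO 1 or KO 3 (adjusted p up to 0.0809). Cdc20 and Incenp fell in Het without passing in KO, and both were higher in KO than in Het, which this way of picking them favours. Plk1, Foxm1, Ndc80, Bub3, Espl1, Kif20a and Prc1 passed in neither comparison with WT. Bub3 was higher in KO than in Het (0.26, adjusted p = 0.0163), a call lost without scaling (0.15) and without KO 1 (0.21, adjusted p = 0.0754). A locus of another gene overlaps that of 15 of the 42 genes, among them Nusap1 with Oip5, Aurka with Cstf1 and Plk1 with Ern2, and how reads were divided there is not given in the sources used here.

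The WT libraries were less alike than the others. The median coefficient of variation over the 42 genes was 10.6% in WT, 5.10% in Het and 5.05% in KO, against 11.02%, 6.26% and 6.83% over the 7793 genes in the same range of levels. Plk1 varied most of the 42 in each group (31.1%, 8.70% and 11.5%), followed in WT by Espl1 (22.6%) and Hmmr (15.3%), and Racgap1 varied least in WT (2.42%). The deviation of a library from its group mean went with the GC content of the transcript, which ran from 40.1% to 56.1% over the 42 genes. Spearman's rho across the 42 genes was -0.73 in WT 1, 0.32 in WT 2, -0.52 in WT 3 and 0.79 in WT 4, and across all genes it was -0.73, 0.43, -0.50 and 0.75. In the Het libraries it ran from -0.48 (Het 2) to 0.43 (Het 3) across the 42 genes and from -0.53 (Het 2) to 0.46 (Het 4) across all genes. In the KO libraries it ran from -0.54 (KO 3) to 0.56 (KO 4) across the 42 genes and from -0.43 (KO 1) to 0.50 (KO 4) across all genes. These are descriptions across genes of a single library, which are not independent. WT 1 and WT 4, which stand at opposite ends, belong to the same group. The KO difference from WT had a rho with GC content of 0.26 across the 42 genes and 0.18 across all genes. Its median was -0.46 over the 14 of the 42 genes lowest in GC content and -0.23 over the 14 highest. The 42 genes had a median GC content of 46.9%, against 50.1% over the tested genes with a value. With a correction for GC content within each library, 34 of the 42 fell in KO and 1 rose (Ndc80), where 29.3% of the 13318 genes tested fell and 29.0% rose. The median difference over the 42 was nearer 0 with this correction, at -0.34 against -0.40 in the main fit. With WT 2 and WT 3 as the only WT libraries 32 fell and 0 rose, where 23.5% and 23.2% of all genes did. In Het against WT, 26 fell and 3 rose with the GC correction, where 28.4% and 28.0% of all genes did. Among these, Cdk1, Foxm1, Kif4, Bub1, Espl1 and Prc1 fell and Kif14 rose without having passed in the main fit.

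**Figure D4:**
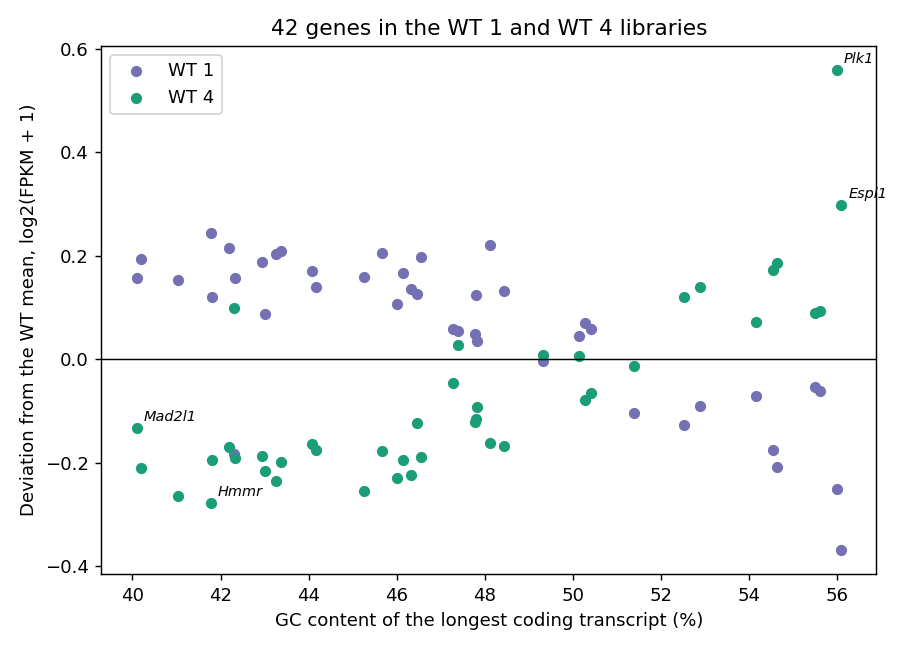
Each point is 1 of the 42 genes, with the GC content of its longest coding transcript in percent on the x axis and the deviation of the WT 1 or WT 4 library from the WT mean, in log2(FPKM + 1), on the y axis. Deviations fall with GC content in WT 1 and rise in WT 4, where Plk1 and Espl1 stand highest.

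Genes that work beside the 42 were read from lists of textbook members. In KO against WT, 23.8% of all genes tested fell and 23.3% rose, which is the share to set beside each list. Of 34 other kinetochore and centromere genes, 16 fell and 2 rose in KO (median -0.23). The inner kinetochore gene Cenpk measured 31.5 FPKM in WT and 16.6 in KO (-0.88, adjusted p = 2.68e-05), Cenpi had -0.84, adjusted p = 5.8e-05, and Casc5, the KNL1 platform on which BUB1 and BUB3 dock, had -0.77, adjusted p = 0.000189. Of 30 other spindle and centrosome genes, 14 fell and 3 rose (median -0.19). They were led by the centriole gene Cenpj (-1.21, adjusted p = 2.63e-06), the spindle gene Dlgap5 (-0.95, adjusted p = 2.06e-06) and the microtubule polymerase gene Ckap5 (-0.80, adjusted p = 0.000102). Of 16 regulators of CDK1 and mitotic exit, 10 fell and 1 rose (median -0.29), with Lats2 at -0.97, adjusted p = 2.62e-05, Cdca2 at -0.87, adjusted p = 4.64e-07 and Bora, which helps to activate PLK1, at -0.75, adjusted p = 5.37e-06.

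Other lists had medians nearer 0. Of 17 subunits of the anaphase-promoting complex and related genes, 2 fell (Anapc1 and Anapc13) and 3 rose (median 0.098), with Cdc16 at 0.64, adjusted p = 0.000266. These are 11.8% and 17.6% of the list, both below the 23.8% and 23.3% of all genes. Of 19 condensin and cohesin genes, 7 fell (36.8%) and 2 rose (10.5%), with a median of -0.06. Esco2, which acetylates cohesin, fell from 17.8 to 7.01 FPKM (-1.22, adjusted p = 1.01e-05). Of 22 regulator genes of DREAM and the MuvB core, 6 fell (27.3%, near the share of all genes) and 1 rose (4.55%), with a median of -0.12. Tfdp1 was the one that rose (0.46, adjusted p = 0.000102), and Tfdp2 fell (-0.52, adjusted p = 0.000301). Of 39 DNA replication genes, 10 fell and 3 rose (median -0.02), where 23.8% and 23.3% of all genes did. Ccne1, the cyclin of entry into S phase, rose (1.27, adjusted p = 5.18e-07), and Gmnn, which encodes the licensing inhibitor geminin, fell (-0.75, adjusted p = 2.72e-06).

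Of 7 genes of CDK inhibitors, 4 rose in KO and 1 fell, where 23.3% and 23.8% of all genes did. Cdkn1a, which encodes p21, measured 5.50 to 7.07 FPKM in WT, 27.8 to 30.1 in Het and 50.3 to 53.5 in KO, with no overlap between the 3 groups. Its difference from WT was 2.82, adjusted p = 5.71e-10 in KO and 2.01, adjusted p = 7.89e-09 in Het. Cdkn1b, which encodes p27, rose in KO (0.50, adjusted p = 0.00108). Cdkn1c, which encodes p57, had means of 1.03 FPKM in WT, 6.06 in Het and 0.0199 in KO, and rose in Het (1.80, adjusted p = 1.97e-07) and fell in KO (-0.99, adjusted p = 2.24e-05). The part of these genes in the levels of the 42 was not tested.

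**Figure D5:**
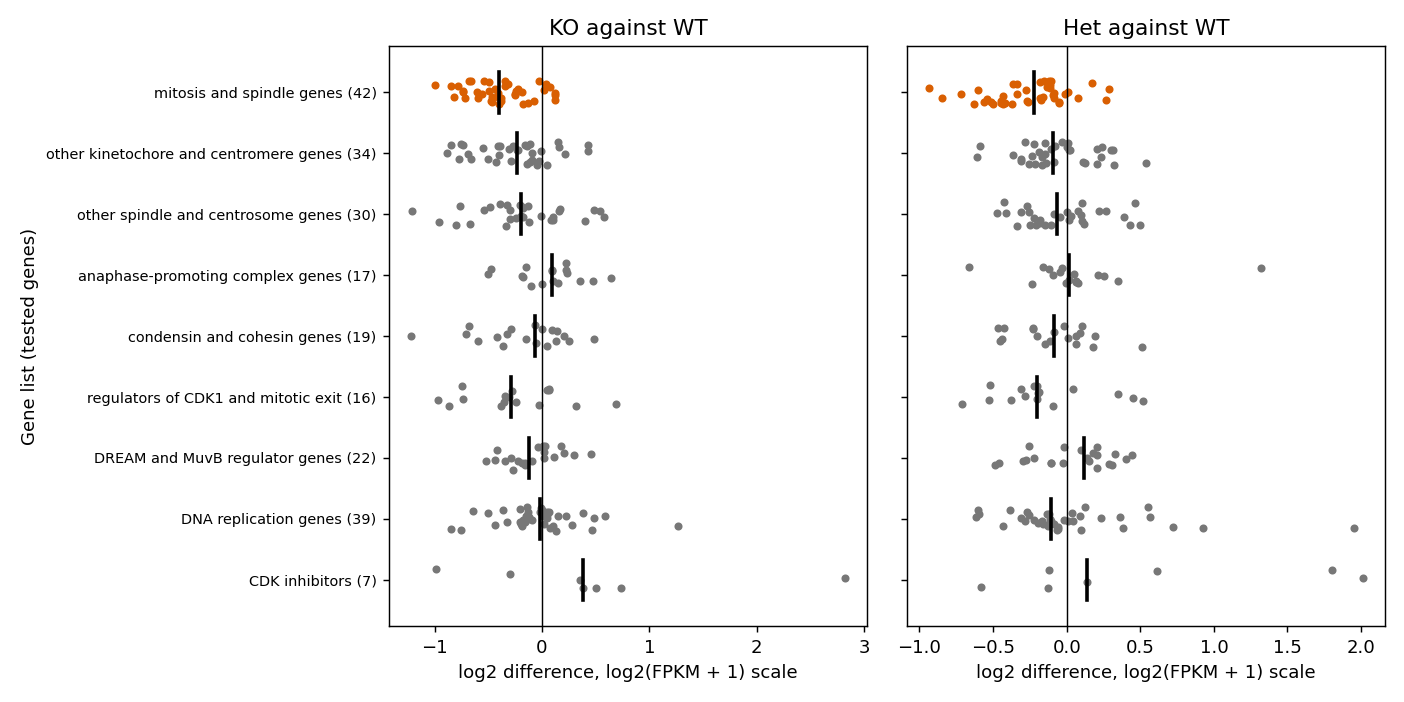
Points give the log2 difference of single genes in KO against WT (left) and Het against WT (right), by list, with the number of tested genes in brackets and a black bar at the median. The 42 mitosis and spindle genes (orange) have a median of -0.40 in KO and -0.22 in Het, and the DNA replication genes -0.02 and -0.11.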

How the data were processed

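RNA of 11 libraries was analysed, 4 WT, 4 Het and 3 KO. The submitters dropped 1 more KO library after quality control. The deposited FPKM were estimated by the authors with Cufflinks 2.2.1 after placement with TopHat2 2.1.0 on GRCm38.p4, per the submitters' processing notes, which also name Cuffdiff. Libraries were prepared with a stranded mRNA kit, per the labels. How strand was used is not given in the sources used here. The tables hold no counts, so no count model was used.

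FPKM were summed per symbol, divided by a median of ratios over 13981 genes, and kept at 1 FPKM or more in at least 3 libraries, which left 14948 genes. The log2 of FPKM plus 1 was fitted with limma 3.58.1 (R 4.3.3), 1 mean per group, a mean-variance trend, and a spread pooled over all 11 libraries. Benjamini-Hochberg adjustment ran over all genes in each of 3 comparisons, at 0.05. "Rose" and "fell" mean past that threshold. The scale understates changes of low genes. The fit was run on simulated data with independent noise per gene and the same spread in all groups. The real libraries had unequal spread and deviations that went with GC content, so that run does not vouch for their p-values.

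Genes given in every library were set by rule. These are, in each role, those with the largest and smallest KO difference, the most abundant gene, Foxm1, and genes passing in opposite directions in Het and KO. In related lists, up to 3 genes with the largest KO difference are named. The values of 1 gene this rule names are not reported here. Values of other genes named were chosen after they were seen. The 42 genes, lists and rules were chosen with earlier results of these data known. Coordinates are on GRCm38, counted from 1, with 1 added to the starts in the tables. GC content came from the longest coding transcript (13318 tested genes had one).

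Alternatives were other scalings, pseudocounts of 0.1 and 5, no filter or one at 5 FPKM, primary chromosomes only, a replicate block, no trend, only the 2 groups compared, and each library left out. GC correction, its combination with the replicate block, and WT 2 and WT 3 as the only WT libraries were added after seeing the data.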

Additional observations from a re-analysis of the deposited data

Results flagged for a closer look

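Of 84 sets of 4 libraries tested (the 42 genes in WT and in Het), 1 had a library standing apart by Dixon's criterion, where chance gives about 1 in 20. In Het, Cdc25b measured 22.1 FPKM in Het 1 and 23.6 in each of the other 3 libraries. All 4 Het values were above the WT range, which ended at 20.1 FPKM. The KO group, with 3 libraries, was not tested in this way.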

How the results depend on the processing

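In KO against WT, between 28 and 34 of the 42 genes fell under the alternatives tried, and in Het against WT between 19 and 27 fell. Over all genes tested, 11.9% to 31.1% fell in KO against WT and 10.9% to 29.2% in Het against WT, both lowest with no filter. The number that rose in KO against WT was 0 except with GC correction and with the replicate block with GC correction, where it was 1 (Ndc80) in each. Over all genes tested, 11.9% to 29.2% rose. The number higher in KO than in Het moved from 8 to 4 without scaling, to 9 with only the 2 groups compared and to 11 with GC correction and with the replicate block with GC correction, and ran from 5 to 8 when libraries were left out one at a time, with 5 without KO 1 and without KO 4. Deviations from the group means correlated by 0.25 to 0.35 between libraries numbered 4, by 0.044 to 0.33 between those numbered 1, and by -0.10 to -0.010 between those numbered 2 or 3. Not every pair was thus above 0.1, not every library correlated best with its own number, and the labels give no shared source, so the numbers were not taken as pairing the libraries. With the replicate block, 30 fell and 0 rose in KO against WT, where 24.1% and 24.7% of all genes did. In Het against WT 20 fell and 2 rose with it, where 23.3% and 23.5% of all genes did. In KO against Het 18 were lower and 8 higher, where 22.9% and 23.1% of all genes were. Differences that changed sign without passing the test before or after were counted as unchanged in call. Precision is limited by the 3 KO libraries, the depth of WT 3 and KO 1, and the spread within WT.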
